A study of Mus musculus with 12 samples.

Results

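The genes described here encode the parts of perineuronal nets, the dense extracellular matrix that wraps the cell body and proximal dendrites of certain neurons. They are Acan, Bcan, Ncan, Hapln1, Hapln4, Tnr and Ptprz1. They were chosen by symbol as known net components, with earlier results of these data known, and were found as 7 of the 34745 genes of the deposited table. Transcripts were measured by RNA sequencing of the medial prefrontal cortex (mPFC) of male mice, genotype WT in every group, in 12 libraries of 3 groups. A chronic constriction injury (CCI), a loose tying of the sciatic nerve that is used as a model of neuropathic pain, had been made 28 days earlier in the mice of both CCI groups. Of these, 4 libraries came from the left mPFC, labelled ipsilateral, and 4 from the right mPFC, labelled contralateral. The other 4 came from naive mice at day 28 of habituation, with no operation named and no hemisphere given, so CCI cannot be told apart from the operation itself. The codes of the CCI libraries pair a number with L or R, and the left and right library of a number were read as 1 mouse, which the labels do not say outright. The labels give no age, strain or pooling, so p-values measure the spread between these samples.

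In a perineuronal net, chains of hyaluronan at the cell surface carry proteoglycans of the lectican family, link proteins fasten the lecticans to hyaluronan, and tenascin-R ties neighbouring lecticans together. In the cortex the nets are known mainly around fast-spiking interneurons that hold the calcium buffer parvalbumin, and their makers include neurons as well as glia. Acan (aggrecan), Bcan (brevican) and Ncan (neurocan) are lecticans. Hapln1 and Hapln4 are link proteins, Tnr is tenascin-R, and Ptprz1 is a receptor tyrosine phosphatase whose secreted form, phosphacan, also lies in the matrix. RNA of a piece of tissue cannot tell fewer cells of a type from less RNA per cell, and it does not measure the nets themselves.

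In GRCm38/mm10, as the deposited table gives them, Acan (ENSMUSG00000030607) lay at chr7:79053483-79115099, Bcan (ENSMUSG00000004892) at chr3:87987531-88000230 and Ncan (ENSMUSG00000002341) at chr8:70093085-70120873. Hapln1 (ENSMUSG00000021613) lay at chr13:89540636-89611832, Hapln4 (ENSMUSG00000007594) at chr8:70083529-70090862, Tnr (ENSMUSG00000015829) at chr1:159523769-159931729 and Ptprz1 (ENSMUSG00000068748) at chr6:22875502-23052916. Bcan and Ncan are on the minus strand and the others on the plus strand. Hapln4 and Ncan are direct neighbours whose ends face each other, 2222 bases apart, with 0 annotated genes between them. Tnr was the 1 member that overlapped other annotated genes, 3 in number, none of which averaged more than 0.58 counts per library against 4112 for Tnr.

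Sequences upstream of the transcription start were taken from RefSeq (GRCm38.p6), which matched 6 of the 7 members. Those of Bcan and Ncan are shown because their levels followed each other most closely among the members, and those of Hapln1 and Ptprz1 because their levels ran opposite to Hapln4; this choice was made with the values known. Each holds the 250 bases before the start, 5′ to 3′ on the gene's strand: chr3:88000357-88000606 for Bcan, chr8:70120845-70121094 for Ncan, chr13:89540386-89540635 for Hapln1 and chr6:22875252-22875501 for Ptprz1. Capitals mark matches to any of 4 motifs, searched on both strands. The TATA box was spelled TATAAA in this search. The CCAAT box is spelled by its name. For the GC box the letters were GGGCGG. The core that SOX factors bind was searched as ACAAAG. No motif holds another within its letters.
Bcan: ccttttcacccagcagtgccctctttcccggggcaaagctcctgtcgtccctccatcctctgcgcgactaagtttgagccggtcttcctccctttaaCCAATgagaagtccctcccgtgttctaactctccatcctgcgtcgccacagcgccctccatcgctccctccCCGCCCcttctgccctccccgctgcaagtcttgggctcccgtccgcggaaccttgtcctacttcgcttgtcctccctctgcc
Ncan: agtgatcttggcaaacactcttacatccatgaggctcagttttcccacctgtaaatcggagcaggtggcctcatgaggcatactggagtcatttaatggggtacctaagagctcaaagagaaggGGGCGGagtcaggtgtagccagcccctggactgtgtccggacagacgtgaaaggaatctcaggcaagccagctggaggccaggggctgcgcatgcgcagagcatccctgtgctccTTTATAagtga
Hapln1: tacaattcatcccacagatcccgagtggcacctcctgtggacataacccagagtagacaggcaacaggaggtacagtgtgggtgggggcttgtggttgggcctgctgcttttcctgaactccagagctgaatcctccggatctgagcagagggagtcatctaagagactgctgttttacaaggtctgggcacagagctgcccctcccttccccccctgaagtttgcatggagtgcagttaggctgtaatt
Ptprz1: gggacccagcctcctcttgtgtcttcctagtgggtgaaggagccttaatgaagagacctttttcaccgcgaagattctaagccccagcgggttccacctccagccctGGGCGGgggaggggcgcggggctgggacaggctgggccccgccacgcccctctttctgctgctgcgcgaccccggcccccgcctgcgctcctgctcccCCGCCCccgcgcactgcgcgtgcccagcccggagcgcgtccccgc
Bcan held 1 match to the CCAAT box and 1 to the GC box, Ncan 1 to the TATA box and 1 to the GC box, Ptprz1 2 to the GC box, and Hapln1 none. The TATA match of Ncan is on the opposite strand and lies close to the start. Of 32851 mouse promoters of this length, 12.4% held the TATA box, 33.8% the CCAAT box, 32.7% the GC box and 16.5% the SOX core. The G and C share was 62.0% for Bcan, 54.4% for both Ncan and Hapln1, and 71.6% for Ptprz1, beside a median of 52.4% over all promoters. A match is a run of letters; no binding or promoter activity was measured.

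Total counts ran from 16.1 M to 20.6 M (mega-counts) per library. Cortical markers were present in all 12 libraries, with the vesicular glutamate transporter Slc17a7 between 1658 and 2003 CPM (counts per mega-count, scaled to the library's effective total) and the GABA-synthesising enzyme Gad1 between 309 and 419 CPM. The library contralateral 1 stood apart in 9 striatum markers, which summed to 551 CPM there and to between 245 and 305 CPM in each other library. For Acan, Hapln1 and Hapln4, fold changes between sides are given with and without it. Fold changes of genes outside the net set, and counts over gene lists, are given only with it.

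Compared per gene length, in the authors' deposited FPKM, the 7 genes covered a wide range of levels. Hapln4 had the highest median over the 12 libraries, 43.8 FPKM (26.6 to 56.8), followed by Ncan at 43.2 FPKM (40.6 to 48.4) and Bcan at 40.2 FPKM (30.4 to 48.5). These top genes overlapped across libraries and are not ordered beyond that spread. Tnr followed at 16.1 FPKM (15.3 to 19.0), Ptprz1 at 8.48 FPKM (7.31 to 11.6), Hapln1 at 4.00 FPKM (3.26 to 4.84) and Acan at 0.428 FPKM (0.281 to 0.665). From Bcan downward, the libraries of neighbouring genes did not overlap. Aggrecan, the lectican most often used to define nets, was thus the least abundant transcript of the set, with 47 to 111 counts per library. Counting error alone is 14.6% of the lowest of these counts, against 6.14% for Hapln1 and at most 2.43% for the others.

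**Figure D1:**
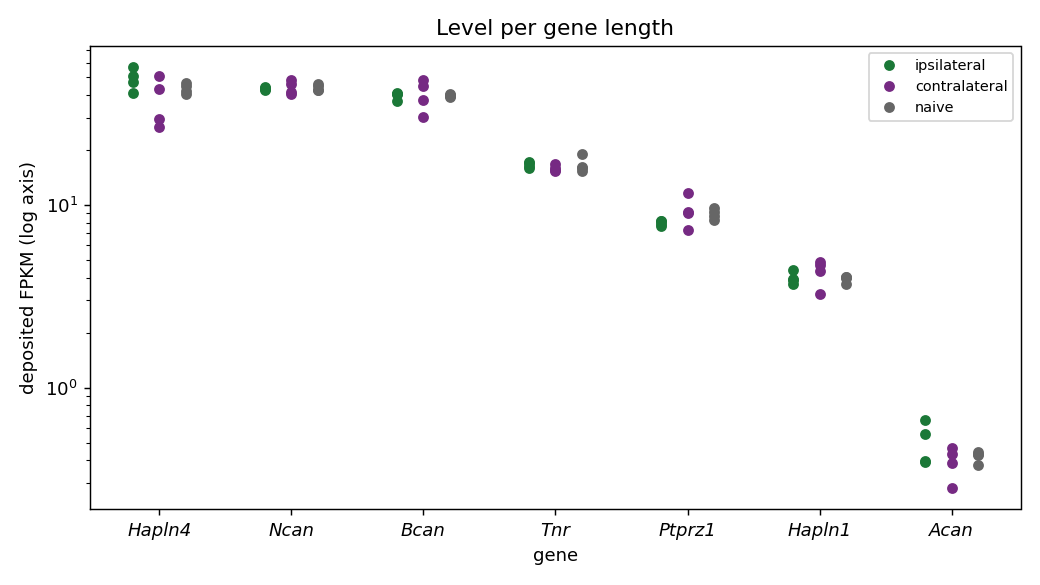
Deposited FPKM (log axis) of each gene in each of the 12 libraries, coloured by group, genes in order of their median. Hapln4, Ncan and Bcan overlap at the top, and Acan lies below 0.67 FPKM in every library.

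No net gene passed the threshold in any comparison. With edgeR's quasi-likelihood test and Benjamini-Hochberg adjustment, 0 of 7 members had an adjusted p under 0.05 in contralateral against naive, ipsilateral against naive, contralateral against ipsilateral, and CCI mice (both hemispheres summed) against naive mice. The share called over all genes tested was 0% in each comparison as well. At an unadjusted p under 0.05, edgeR gave 0 of 7 members in each comparison, beside 3.78%, 4.83%, 8.36% and 4.2% of all genes in that order. DESeq2 and limma voom also gave 0 of 7 by adjusted p, and by unadjusted p 0 of 7 in the comparisons with naive and 1 of 7, Hapln4, in contralateral against ipsilateral. In the same order of comparisons, the unadjusted share of all genes was 3.37%, 4.39%, 8% and 3.58% with DESeq2 and 4.04%, 4.97%, 8.66% and 4.43% with limma voom. All 7 members passed the filter on low counts. A p that misses the threshold does not show that levels were equal, and the values and intervals below say how large a difference these libraries leave room for.

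**Figure D2:**
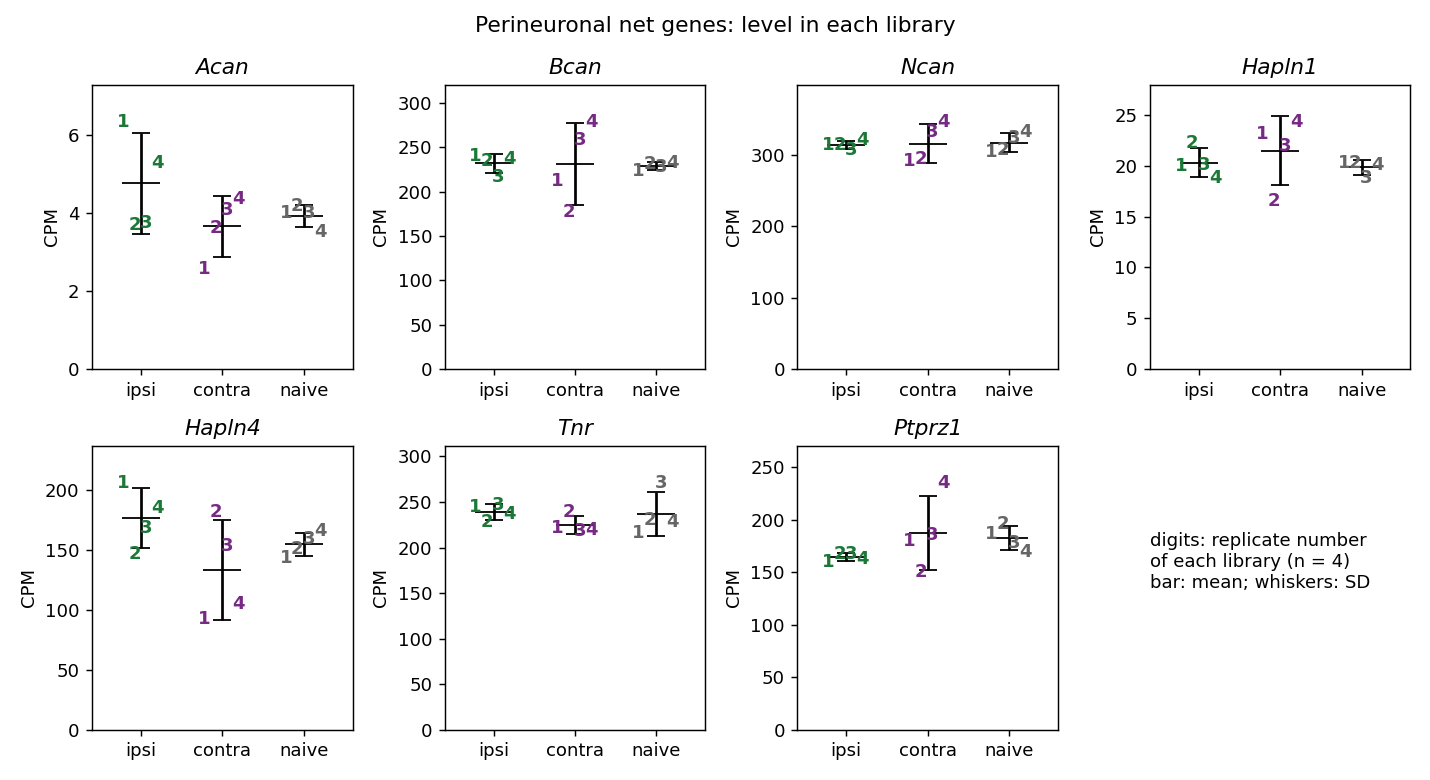
CPM of each net gene in each library, drawn as its replicate number, with the group mean and SD (n = 4); each axis starts at 0. Contralateral libraries 1 and 4 hold the lowest Hapln4 values, 92.9 and 105 CPM, and contralateral 4 the highest Ptprz1 value, 235 CPM.

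Among the lecticans, Ncan kept the narrowest range. It stood at 314, 314, 307 and 321 CPM in ipsilateral libraries 1 to 4, at 292, 294, 331 and 346 CPM in contralateral libraries, and at 304, 307, 323 and 332 CPM in naive libraries. All groups overlapped. The log2 fold change was 0.01 for contralateral against ipsilateral (SE 0.06, 95% interval -0.12 to 0.14, edgeR adjusted p = 0.975). For CCI mice against naive mice it was -0.01 (SE 0.05, interval -0.11 to 0.10, edgeR adjusted p = 1.00).

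Bcan, a lectican made largely by glia, was at 240, 234, 216 and 236 CPM in ipsilateral, 212, 177, 258 and 278 CPM in contralateral and 223, 231, 228 and 233 CPM in naive libraries. The contralateral libraries held both extremes, with numbers 1 and 2 below and numbers 3 and 4 above every naive library, while the means of the 3 groups lay within 3 CPM: 232 ± 10.7, 231 ± 46.0 and 229 ± 4.31 CPM (SD, n = 4 each). The log2 fold change of contralateral against ipsilateral was 0.00 (SE 0.11, interval -0.24 to 0.23, edgeR adjusted p = 0.997).

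Acan, the lectican at the core of mature nets, was at 6.34, 3.69, 3.74 and 5.29 CPM in ipsilateral, 2.58, 3.63, 4.08 and 4.37 CPM in contralateral and 4.01, 4.18, 4.01 and 3.52 CPM in naive libraries. Ipsilateral 1 and 4 were the highest of the 12 and contralateral 1 the lowest; the groups overlapped. Its log2 fold change was -0.38 for contralateral against ipsilateral (SE 0.20, interval -0.80 to 0.05, edgeR adjusted p = 0.615). Without contralateral 1 the value was -0.24, without ipsilateral 1 it was -0.20, and without both CCI libraries of number 1 it was -0.07. Against naive, the log2 fold change was 0.27 (SE 0.20) for the ipsilateral and -0.10 (SE 0.20) for the contralateral side, the latter turning to 0.04 without contralateral 1 and to -0.20 without contralateral 4. The ipsilateral value was 0.11 without ipsilateral 1.

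Of the link proteins, Hapln4, which is known from nets where it binds together with brevican, had the largest difference between sides. It stood at 206, 147, 169 and 185 CPM in ipsilateral, 92.9, 182, 154 and 105 CPM in contralateral and 144, 151, 159 and 166 CPM in naive libraries. Contralateral 1 and 4 lay below every other library, while contralateral 2 lay above every naive library, so the groups overlapped. The means were 177 ± 25.2, 133 ± 41.8 and 155 ± 9.86 CPM (SD, n = 4 each). The log2 fold change of contralateral against ipsilateral was -0.41 (SE 0.19, interval -0.83 to 0.02, edgeR adjusted p = 0.607).

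This Hapln4 difference depended on single numbers. It was -0.27 (edgeR adjusted p = 0.744) without contralateral 1, -0.30 (adjusted p = 0.978) without contralateral 4, and -0.59 (adjusted p = 0.109) without contralateral 2. Leaving out both CCI libraries of number 1 gave -0.19 (adjusted p = 0.841), and leaving out both of number 2 gave -0.67 (adjusted p = 0.0862); both were chosen after the data were seen. Against naive, Hapln4 had log2 fold changes of 0.19 (SE 0.19) on the ipsilateral and -0.22 (SE 0.19) on the contralateral side. The ipsilateral value was 0.11 without ipsilateral 1. The contralateral value was -0.08 without contralateral 1, -0.11 without contralateral 4 and -0.40 without contralateral 2. Summed over both hemispheres, the 4 CCI mice had 148, 162, 161 and 145 CPM of Hapln4, beside 144 to 166 CPM in the naive mice. The log2 fold change of the mice was -0.01 (SE 0.06, interval -0.13 to 0.12, edgeR adjusted p = 1.00).

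Hapln1, the link protein of the lower level, was at 20.0, 22.3, 20.1 and 18.8 CPM in ipsilateral, 23.1, 16.6, 22.0 and 24.3 CPM in contralateral and 20.3, 20.3, 18.8 and 20.1 CPM in naive libraries. Contralateral 1, 3 and 4 lay above all naive libraries and contralateral 2 below them, and the groups overlapped. The log2 fold change of contralateral against ipsilateral was 0.08 (SE 0.10, interval -0.14 to 0.30, edgeR adjusted p = 0.833). Leaving out both CCI libraries of number 2 gave 0.24 (edgeR adjusted p = 0.122), and both of number 1 gave 0.04. Leaving out a single library moved it to 0.02 without contralateral 4, 0.04 without contralateral 1, 0.05 without ipsilateral 4, 0.14 without ipsilateral 2 and 0.19 without contralateral 2.

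Tnr, the cross-linker, was at 245, 228, 247 and 237 CPM in ipsilateral, 222, 239, 218 and 219 CPM in contralateral and 216, 231, 271 and 228 CPM in naive libraries. The highest and the lowest library were both naive. For contralateral against ipsilateral its log2 fold change was -0.09 (SE 0.07, interval -0.23 to 0.05, edgeR adjusted p = 0.710).

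Ptprz1, which neural precursors and astrocytes also carry, was at 160, 168, 168 and 163 CPM in ipsilateral, 180, 151, 186 and 235 CPM in contralateral and 187, 196, 178 and 169 CPM in naive libraries. All 4 ipsilateral libraries lay below all 4 naive libraries, with 168 CPM as the highest ipsilateral and 169 CPM as the lowest naive value. Ptprz1 was the 1 of 7 members whose groups did not overlap in that comparison, beside 4.73% of all genes tested. There were 0 of 7 such members in contralateral against naive (2.2% of all genes), contralateral against ipsilateral (2.95%) and the mice (2.71%). The log2 fold change of ipsilateral against naive was -0.15 (SE 0.10, interval -0.37 to 0.07, edgeR adjusted p = 0.972). For contralateral against ipsilateral it was 0.19 (SE 0.10, interval -0.03 to 0.41, edgeR adjusted p = 0.616), 0.07 without contralateral 4 and 0.29 (adjusted p = 0.0939) without contralateral 2.

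**Figure D3:**
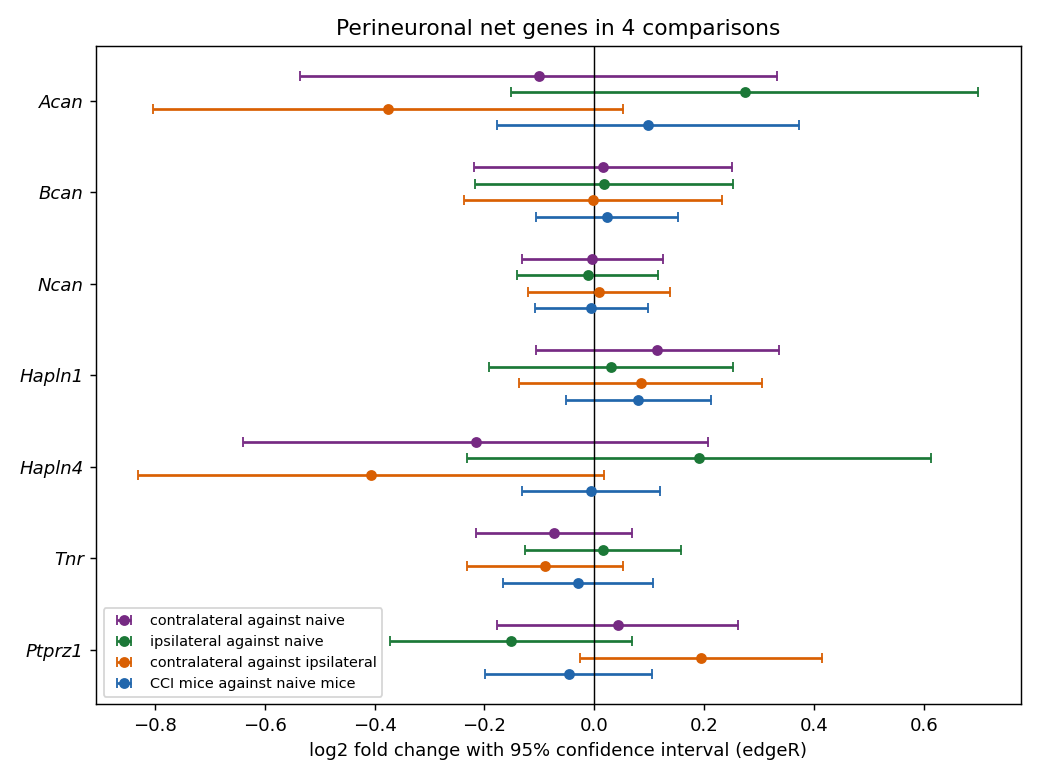
Log2 fold changes (points) with 95% confidence intervals (bars) of the 7 net genes in the 4 comparisons, from edgeR. Every interval includes 0; Acan and Hapln4 have the widest intervals between sides, and for each of the 7 genes the mouse comparison has the narrowest interval.

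Summed per mouse, the net genes had narrower intervals. These bound the sum of both hemispheres and not the difference on either side, and only CCI libraries were summed. The intervals of CCI against naive mice lay between -0.20 and 0.21 on the log2 scale for 6 members. Acan, the gene of lowest count, had an interval of -0.18 to 0.37. Over the 7 members, 3 had a log2 fold change above 0 and 4 below it, with a median of -0.01, beside 8140 of 16179 genes above 0 over the whole table. All members overlapped between CCI and naive mice.

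Within mice, the side with more transcript differed from number to number. Right minus left, the log2 difference of Hapln4 was -1.15, 0.31, -0.13 and -0.82 in numbers 1 to 4. For Acan it was -1.26, -0.02, 0.12 and -0.27. For Ptprz1 it was 0.17, -0.15, 0.15 and 0.53, and for Hapln1 0.21, -0.42, 0.13 and 0.37. Number 2 had the opposite sign to the other numbers for Hapln4, Hapln1, Tnr and Ptprz1. Bcan was lower on the right in numbers 1 and 2 (-0.18 and -0.41) and higher in numbers 3 and 4 (0.26 and 0.24), and Ncan had the same signs at smaller size (-0.11, -0.09, 0.11 and 0.11).

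**Figure D4:**
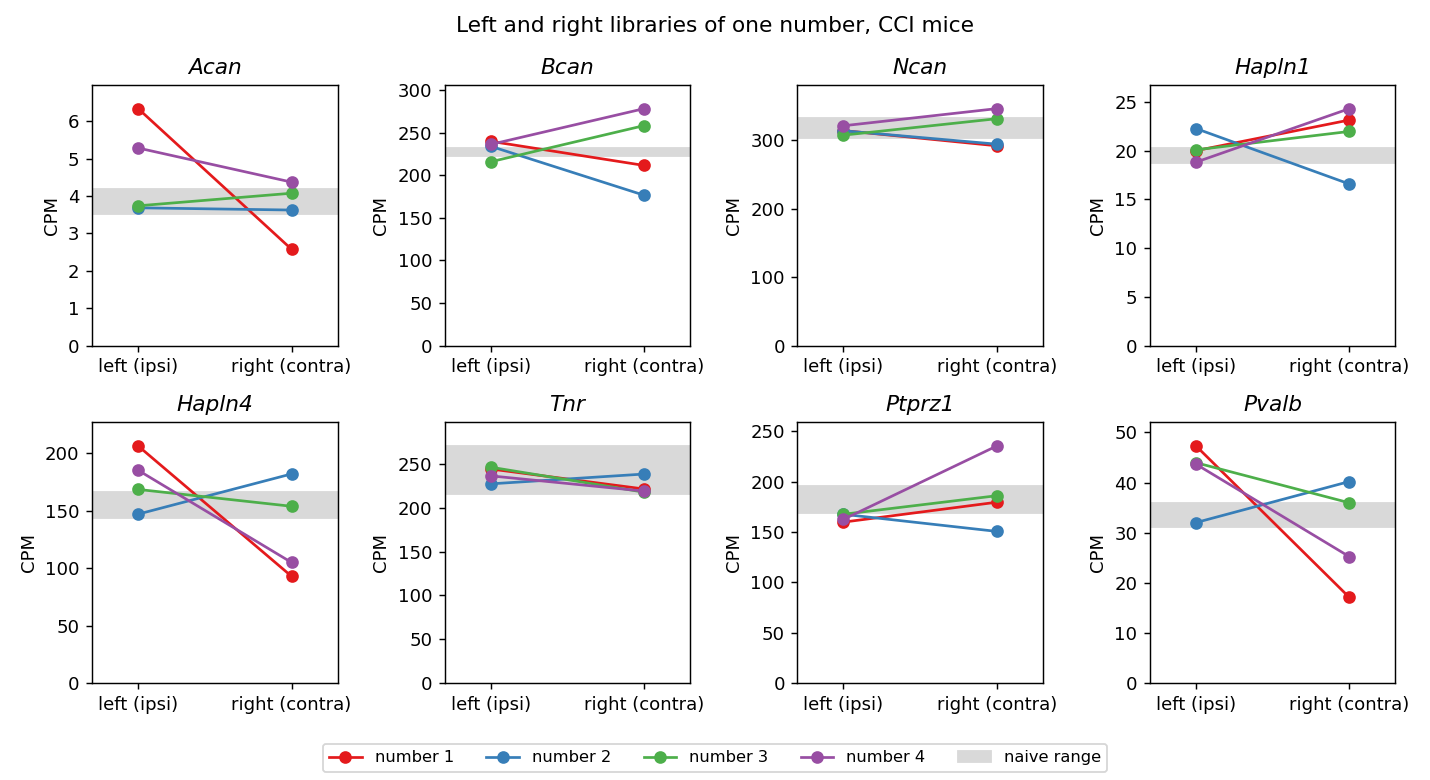
CPM in the left and right library of each CCI number (joined points, colours 1 to 4) for the 7 net genes and Pvalb, with the range of the 4 naive libraries in grey; each axis starts at 0. Numbers 1, 3 and 4 have less Hapln4 and less Pvalb on the right than on the left, and number 2 has more of both.

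The spread among contralateral libraries was wide for most members. The SD of log2 CPM there was 0.46 for Hapln4, which exceeded that of 95.1% of 11778 genes with a mean of at least 5 CPM. It was 0.33 for Acan, 0.30 for Bcan, 0.27 for Ptprz1, 0.25 for Hapln1, 0.12 for Ncan and 0.06 for Tnr, where the median of those genes was 0.13. Acan itself lay below that cutoff, with group means of 3.66 to 4.76 CPM, so its SD holds more counting error. In naive libraries Hapln4 had an SD of 0.09 and Bcan of 0.03, where the median was 0.10. The contralateral side was not the widest for every member. Acan had an SD of 0.38 in ipsilateral and 0.11 in naive libraries, and Tnr had 0.14 in naive libraries, more than on either side.

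The net genes did not vary as 1 group. Across the 12 libraries, Bcan and Ncan followed each other most closely, with Pearson r of 0.83 and Spearman rho of 0.82 between their log2 CPM, and r of 0.76 without the 2 libraries farthest from the median of Bcan, contralateral 2 and 4. Hapln4 ran against Hapln1 (r of -0.75, rho of -0.83, r of -0.72 without contralateral 2 and 4) and against Ptprz1 (r of -0.69, rho of -0.78, r of -0.76 without contralateral 1 and 4). Hapln1 and Ptprz1 had r of 0.71 (rho 0.68), but 0.26 without contralateral 2 and 4. The r of 0.69 between Bcan and Hapln1, of 0.68 between Bcan and Ptprz1, and of 0.63 between Acan and Hapln4 was between -0.07 and -0.02 without the farthest libraries, on which these relations rest. Hapln4 and Ncan, the genomic neighbours, had r of 0.00. These values describe 12 libraries, of which the left and right share mice, and each pair shares the library's depth and composition.

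The genes of most similar pattern differed by member. Among 11772 other genes with a mean of at least 5 CPM, Dusp3 (a dual-specificity phosphatase; r of 0.99 over 12 libraries), Lynx1 (a modulator of nicotinic receptors; 0.98) and Kcnab3 (a potassium channel beta subunit; 0.97) were nearest to Hapln4. They kept r of 0.96, 0.95 and 0.89 without contralateral 1 and 4. Nearest to Ptprz1 were Piezo1 (0.96), a mechanically gated channel, Man2c1 (0.95) and D430019H16Rik (0.95). Nearest to Bcan were Lmcd1 (0.92), Palmd (0.89) and Lemd1 (0.89), and to Ncan Cul9 (0.92), Dio2 (0.90), which activates thyroid hormone, and Syt7 (0.90). Hapln1 was nearest to Plxna3 (0.93), Gm9843 (0.92) and Fcgr3 (0.91), Tnr to Atp8a2 (0.90), Slc35e2 (0.89) and Ank2 (0.88), and genes near to Acan included Kcnh2 (0.90) and Ccdc184 (0.88). The mean of the 7 members was nearest to Kat2a (0.90), St3gal3 (0.89), Rpap1 (0.89), Ggt7 (0.88) and Ints1 (0.87). All these genes were picked for the highest r among 11772 over only 12 libraries, which makes a high r likelier for unrelated genes too. Without the 2 libraries farthest from each member's median, r of the genes named beside members other than Hapln4, or beside the mean, ran from 0.52 (Palmd) to 0.92 (Piezo1). Ggt7 and Ccdc184 had 0.63 then, and the rho of Kcnh2 with Acan over all 12 libraries was 0.48.

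Most genes of the interneuron list, though not all, varied in the direction of Hapln4 between libraries. Of its 18 genes, 16 had r above 0 with Hapln4 and 2 below 0 (median r 0.76), and 17 and 1 without contralateral 1 and 4 (median 0.65). Pvalb, the parvalbumin gene, was at 47.3, 32.0, 44.0 and 43.7 CPM in ipsilateral, 17.1, 40.2, 36.0 and 25.2 CPM in contralateral and 31.7, 35.9, 31.1 and 32.6 CPM in naive libraries, lowest in contralateral 1 and 4 like Hapln4. Over 12 libraries Hapln4 had r of 0.94 with Pvalb (rho 0.87, 0.83 without contralateral 1 and 4), 0.97 with the neurofilament gene Nefh (0.96 without them) and 0.97 with the complexin gene Cplx1 (0.93). With Slc17a7, a gene of excitatory neurons, r was 0.88 (0.64), so the likeness was not limited to interneuron genes. Vip, which marks another interneuron class, ran against Hapln4 (r of -0.70, rho of -0.80, r of -0.89 without contralateral 1 and 4). The sodium channel gene Scn1a had r of 0.27 with Hapln4 (0.43), and Sst had 0.00 (0.67). Acan had r of 0.71 with Pvalb, but 0.12 without ipsilateral 1 and contralateral 1.

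Of the 18 interneuron genes, 2 had a log2 fold change above 0 and 16 below it in contralateral against ipsilateral, with a median of -0.21 beside a median of 0.00 over all genes; 0 passed. Gad1 had -0.21 (SE 0.07, edgeR adjusted p = 0.592), Cplx1 -0.38 (SE 0.15), the vesicular GABA transporter Slc32a1 -0.17 (SE 0.07) and Pvalb -0.50 (SE 0.22). Their summed level was 1983 to 2721 CPM in contralateral, 2256 to 2918 CPM in ipsilateral and 2339 to 2478 CPM in naive libraries. In ipsilateral against naive 17 were above 0 and 1 below, with a median of 0.12. In contralateral against naive 6 were above 0 and 12 below, with a median of -0.09, and in the mice 13 and 5 with a median of 0.03. The part of the interneuron genes or the striatum markers of contralateral 1 in the Hapln4 values was not tested.

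**Figure D5:**
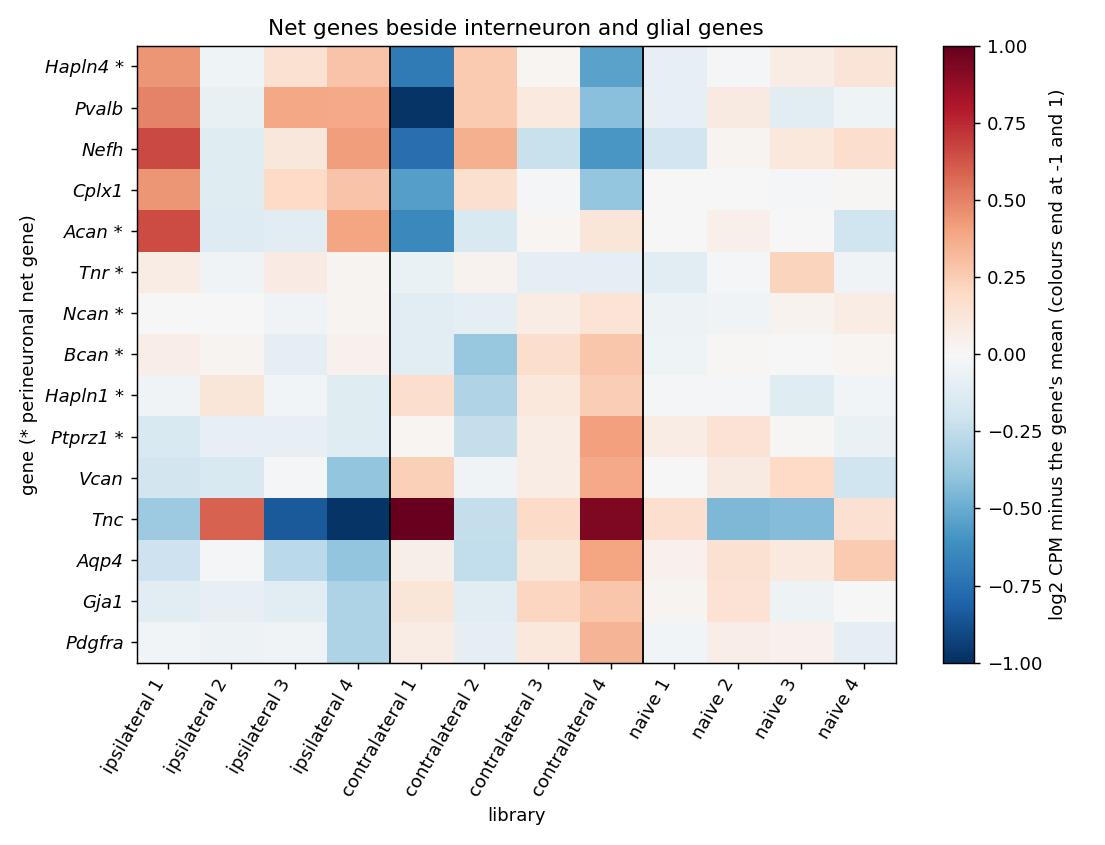
Log2 CPM minus each gene's mean over the 12 libraries (colour, ending at -1 and 1) for the 7 net genes (starred) beside interneuron, matrix and glial genes. Hapln4, Pvalb, Nefh and Cplx1 are low in contralateral 1 and 4, while Ptprz1, Vcan, Aqp4, Gja1 and Pdgfra are high in contralateral 4. Of the interneuron list, only Pvalb, Nefh and Cplx1, which followed Hapln4 closely, are drawn. Vip, which ran against Hapln4, and Sst and Scn1a, of low r with it, are not drawn.

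Some precursor and astrocyte genes, though not the myelin genes, lay beside Ptprz1, in the direction opposite to Hapln4. Over 12 libraries Ptprz1 had r of 0.83 with Pdgfra (0.66 without contralateral 2 and 4), the receptor that marks oligodendrocyte precursors. It had 0.82 with the astrocyte connexin Gja1 (0.81), 0.78 with the water channel Aqp4 (0.65) and 0.42 with the astrocyte gene Gfap (0.60). The myelin list summed to 5688 CPM in contralateral 2, where Ptprz1 was lowest. In contralateral 4, where Ptprz1 was highest, that list summed to 2554 CPM. In contralateral against ipsilateral, 13 of 13 precursor genes besides Ptprz1 itself had log2 fold changes above 0, with a median of 0.19, and so did 16 of 16 astrocyte genes (median 0.20). Of 12 microglia genes 12 were above 0 (median 0.19), of 12 meningeal and fibroblast genes 12 (median 0.67), of 13 myelin genes 13 (median 0.15) and of 12 endothelial and mural genes 11 (median 0.23); 0 of them passed. In ipsilateral against naive, where all Ptprz1 values lay lower, 10 of the 13 precursor genes and 14 of 16 astrocyte genes were below 0, with medians of -0.09 and -0.12. So were 10 of 12 microglia genes (median -0.13), 12 of 12 meningeal and fibroblast genes (-0.61) and 10 of 12 endothelial and mural genes (-0.12). By contrast, 13 of 13 myelin genes were above 0 (median 0.19). In contralateral against naive, 12 of 13 precursor, 14 of 16 astrocyte and 13 of 13 myelin genes were above 0. In the mice these were 8 of 13, 7 of 16 and 13 of 13. Of microglia, meningeal and endothelial genes, 9, 6 and 10 of 12 were above 0 in contralateral against naive, and 5, 1 and 4 in the mice. Of all genes, 51.1% were above 0 between sides, 49.9% in ipsilateral and 50.1% in contralateral against naive, and 50.3% in the mice. Summed levels of the precursor list, which includes Ptprz1, were 833 to 900 CPM in ipsilateral, 860 to 1080 CPM in contralateral and 883 to 969 CPM in naive libraries. Those of the astrocyte list were 3039 to 5519, 3101 to 6525 and 3382 to 5320 CPM, but the glutamate transporter gene Slc1a2 alone took 295 to 2557, 384 to 2786 and 317 to 2499 CPM of these. Without Slc1a2 the astrocyte list summed to 2744 to 2962 CPM in ipsilateral, 2717 to 3738 CPM in contralateral and 2821 to 3293 CPM in naive libraries. Their part in the Ptprz1 values was not tested.

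The relatives of the net genes included Vcan (versican), a lectican outside the classic net, and Tnc (tenascin-C), which is known mainly from glia. Of 5 other lecticans, link proteins and tenascins tested, 4 were above 0 and 1 below it in contralateral against ipsilateral, with 0 past the threshold. Vcan was at 17.4, 17.8, 19.4 and 15.1 CPM in ipsilateral and at 23.2, 19.3, 20.8 and 25.7 CPM in contralateral libraries. Its log2 fold change was 0.36 (SE 0.11, edgeR adjusted p = 0.592), higher on the right in 4 of 4 numbers. Hapln3, another link protein, had -0.37 in the mice (SE 0.18, edgeR adjusted p = 1.00), on means of 1.69 and 2.19 CPM. Tnc had 0.90 between sides (SE 0.38, edgeR adjusted p = 0.592), on means of 4.06 and 2.16 CPM, and was lower on the right in number 2 alone.

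The enzymes that make and sulfate chondroitin sulfate, the sugar chain that lecticans carry, gave 9 genes above and 12 below 0 of 21 in contralateral against ipsilateral, and 8 and 13 in CCI against naive mice, with 0 past the threshold in either. Ust, which adds sulfate to uronic acid in the chain, had the smallest p of the list in the mice, with 18.2 CPM in CCI and 22.0 CPM in naive mice, a log2 fold change of -0.28 (SE 0.07, edgeR adjusted p = 0.841). The CCI and naive mice did not overlap for Ust, as for 3 of the 21 genes of the list in all and 2.71% of all genes tested. Ust and Chst11 were named for a small p, which makes a lack of overlap likelier. Chst11, a chondroitin 4-O-sulfotransferase, had 0.15 (SE 0.05, edgeR adjusted p = 1.00) in the same comparison, also with no overlap. Chst7 had 0.59 (SE 0.22, edgeR adjusted p = 0.592) in contralateral against ipsilateral, on means of 2.16 and 1.43 CPM.

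Genes of hyaluronan synthesis, binding and breakdown gave 6 above and 4 below 0 of 10 between sides, and 5 and 7 of 12 in the mice, with 0 past the threshold. Hyal2, a hyaluronidase, had -0.46 (SE 0.18, edgeR adjusted p = 1.00) in the mice, on means of 4.19 and 5.77 CPM. Cemip, a hyaluronan-binding protein that takes part in its breakdown, had 0.18 in ipsilateral against naive (SE 0.09, edgeR adjusted p = 0.972). Stab1, a scavenger receptor, had 0.25 between sides (SE 0.14, edgeR adjusted p = 0.619). Of 21 matrix proteases and inhibitors, 12 were above and 9 below 0 between sides and 0 passed. Among them Adamts9 had 0.72 (SE 0.26), on means of 2.39 and 1.45 CPM, Mmp17 had -0.28 (SE 0.11) and the lysosomal protease gene Ctsb had -0.18 (SE 0.07), each at an edgeR adjusted p of 0.592.

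Of 25 receptors, ligands and partners of net components, 11 were above and 14 below 0 between sides, and 9 and 16 in the mice, with 0 past the threshold. Ptn (pleiotrophin), a ligand of Ptprz1, had -0.22 in ipsilateral against naive (SE 0.08, edgeR adjusted p = 0.972), on means of 222 and 259 CPM. Its groups did not overlap, as for Ptprz1, for 4 of the 25 genes of the list in all and for 4.73% of all genes tested. The related ligand Mdk (midkine) had 0.48 in contralateral against ipsilateral (SE 0.18, edgeR adjusted p = 0.592), on means of 5.21 and 3.76 CPM. Gpc4, a glypican, had -0.26 in the mice (SE 0.08, edgeR adjusted p = 1.00), on means of 15.7 and 18.7 CPM with no overlap. In the mice 2 of the 25 genes had no overlap, beside 2.71% of all genes tested. Ptn and Gpc4 were named for a small p, which makes a lack of overlap likelier.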

How the data were processed

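RNA of 12 mPFC samples had been made into libraries with an mRNA kit, per the labels' protocols. The authors deposited 1 table with raw counts and FPKM values per gene and library; FPKM was used only to order genes by level. HISAT2 2.0.4 and the build GRCm38/mm10 are named by the submitters' processing notes with no role; program and annotation behind the counts: not given in the sources used here. A second deposited table was not used.

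Counts were tested with edgeR 4.0.16 (R 4.3.3): TMM factors, filterByExpr by group, robust quasi-likelihood, two-sided, Benjamini-Hochberg over all tested genes, threshold 0.05. All 12 libraries entered 1 fit (15808 genes), which treats the left and right library of a mouse as separate samples. A second fit used counts summed over the left and right library of each CCI number, beside the naive libraries unsummed (16179 genes, 8 mice). Each naive library, of unknown hemisphere, was taken as 1 mouse. CPM used TMM factors; log2 CPM for patterns had a prior count of 2. Intervals are 95%. Each SE is the fold change over the square root of F. Comparisons against naive, and between sides, share libraries.

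Alternatives were RLE scaling, no filter, DESeq2 1.42.0, limma 3.58.1 (voom), a replicate block, only the groups compared, and leaving out libraries. Members and lists were chosen with earlier results of these data known. Named beyond the members were, per list, up to 3 genes of smallest p (not all are printed for marker lists), 8 set marker and matrix genes, and the genes of highest r; Nefh and Sst were named with values known. A few genes meeting this rule go unreported here. In no pair of replicate libraries did more than 1.8% of tested genes have equal counts.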

Additional observations from a re-analysis of the deposited data

Results flagged for a closer look

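Hapln1 in the naive group was marked because 1 library lay far from the others: naive 3 had 18.8 CPM, beside 20.1 to 20.3 CPM in the other naive libraries, and its gap was 0.866 of the group's range. This was the 1 far library among 21 groups of 4 checked (7 genes in 3 groups), and chance marks about 1 group in 20. Left out, naive 3 ended no call and brought none.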

How the results depend on the processing

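Of 490 member values under alternatives, over 28 results, 449 kept their sign and side of the threshold, 41 changed sign and 0 passed the threshold. Most changes of sign came from leaving out 1 library, among values near 0. In that way the log2 fold change ran from -0.195 to 0.0375 for Acan, -0.0816 to 0.131 for Bcan, -0.0464 to 0.0346 for Ncan and -0.0813 to 0.14 for Ptprz1 in contralateral against naive. It ran from -0.029 to 0.0133 for Ncan, -0.0172 to 0.0662 for Hapln1 and -0.0225 to 0.0885 for Tnr in ipsilateral against naive. Between sides it ran from -0.101 to 0.111 for Bcan and -0.0365 to 0.0445 for Ncan. In the mice it ran from -0.0311 to 0.0712 for Bcan, -0.0353 to 0.0187 for Ncan, -0.04 to 0.0293 for Hapln4 and -0.0686 to 0.0429 for Tnr. Apart from single libraries, Bcan in contralateral against naive was -0.0057 with limma voom, Ncan there was 0.001 with only the groups compared, and Bcan between sides was 0.118 without number 2 and 0.0533 without number 1 of both sides. The cause was not tested.

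Over all genes, DESeq2 called 3 genes in contralateral against naive, 9 in ipsilateral against naive and 31 in the mice, where edgeR called 0. Without the filter 5 were called in the mice, and with only the groups compared 1 in contralateral against naive and 7 in ipsilateral against naive. Leaving out 1 library or mouse gave 0 to 2, 0 to 2, 0 to 159 (between sides, the highest without contralateral 2) and 0 to 6 in the mice. Leaving out number 2 of both sides, added after seeing the data, gave 286 between sides. With the replicate number as a block, 1 gene was called in contralateral against naive, 1 in ipsilateral against naive, 1 in the mice and 0 between sides; no member passed, and Hapln4 between sides had -0.44 (edgeR adjusted p = 0.705). Deviations of same-numbered left and right libraries had correlations of 0.01, -0.14, 0.04 and 0.06, so the data do not show the pairing, which comes from the codes alone; naive numbers pair with no CCI mouse.

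The counts of Acan, 4 libraries a group and the unnamed naive hemisphere limit what can be seen. Only transcripts were measured.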
